A study of Rattus norvegicus with 10 samples.

Results

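Transcript signals of 8 genes named for myelin and its cells, Pmp22, Mbp, Mobp, Mog, Mag, Cnp, Ugt8 and Cldn11, were examined in the neurointermediate lobe of the rat pituitary after dehydration. The members were all probe sets whose platform annotation gives exactly 1 gene symbol equal to one of these names. They numbered 16 of the 31042 probe sets on the array that are not controls, for 8 of the 14217 genes that such annotation names. Where a gene has several probe sets they are told apart by their brightness. The tissue came from male Sprague Dawley rats of 10 to 12 weeks. One group had been dehydrated for 3 days and the other was a euhydrated control group. Each group had 5 Affymetrix Rat Genome 230 arrays of version 2.0. RNA for an array was pooled from 5 animals used for no other array, so every value is an average over a pool and the spread is that between pools. A supraoptic nucleus is mentioned in the design text, whereas the title and all sample labels give the neurointermediate lobe, and the labels were followed.

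Myelin is the layered membrane that oligodendrocytes in the brain and Schwann cells in peripheral nerves wrap around axons. Mbp and Mobp are proteins of compact central myelin, Mog lies on its outer surface, Mag on the inner face next to the axon, and Cnp in its cytoplasmic channels. Ugt8 is the transferase that makes galactosylceramide, the lipid for which myelin is known, and Cldn11 forms tight junctions between myelin layers. Pmp22 is a protein of compact peripheral myelin that is also made by fibroblasts, endothelium and epithelia, and it was described early on as a gene switched on at growth arrest. The vasopressin and oxytocin axons that fill the neural lobe are largely without myelin and lie among pituicytes, which are glial cells, while the intermediate lobe consists mostly of melanotrophs.

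The 10 arrays had medians of 35.7 to 39.6 signal units and correlated at r = 0.947 to 0.976 across probe sets on the log2(signal + 5) scale. Pomc, the melanotroph hormone precursor, averaged 735 for dehydrated and 755 for control pools, and Lhx2, a transcription factor of pituicytes, averaged 628 for dehydrated and 477 for control pools. The anterior lobe hormone gene Gh1 was also bright, at 2521 in dehydrated and 2108 in control pools. RNA shortening was followed by how far the 3' probe sets of GAPDH and beta-actin exceeded the 5' ones. On the log2 scale this 3' to 5' ratio was 2.15 ± 0.38 for dehydrated pools and 1.78 ± 0.48 for control pools (SD, n = 5 each, exact two-sided permutation p = 0.214). Precision is limited by there being 5 arrays a group. In such bulk samples fewer cells of a type and less RNA per cell cannot be told apart.

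The myelin label was only partly borne out by the signals. Of the 16 probe sets, 7 passed the filter, which kept the brightest 60% of probe sets by their average over all arrays, a limit that corresponds to a signal of about 22.4. They stood for 4 genes, Pmp22, Mbp, Cnp and Cldn11. Mobp, Mog, Mag and Ugt8, which are the more restricted markers of myelinating cells, had no probe set above it. The genes are therefore called by their names here and not taken as a measure of myelin. Closest to the limit on its lower side was a Cldn11 probe set, with means of 21.3 in dehydrated and 27.2 in control pools. The filter averaged log2(signal + 5), so this probe set was under it although its control mean exceeded 22.4. Closest on the upper side was an Mbp probe set, with 35.9 in dehydrated and 31.6 in control pools.

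Pmp22 rose on the brighter of its 2 probe sets, and it was the only gene of the 8 with a probe set that passed the test. On its brighter probe set (Entrez Gene 24660) the 5 dehydrated pools had signals of 784, 758, 819, 796 and 818, against 637, 655, 594, 586 and 507 in the 5 control pools. The lowest dehydrated pool lay above the highest control pool. The means were 795 ± 25.3 in dehydrated and 596 ± 57.6 in control pools (SD, n = 5 each), a log2 change of 0.42 ± 0.07 (SE), or 1.34-fold, with a 95% confidence interval of 0.26 to 0.57 for the log2 change (limma adjusted p = 0.00512). Among all 18625 tested probe sets 2.46% passed in either direction, 1.68% as higher and 0.784% as lower, and 4.59% had groups that did not overlap, 2.78% with dehydrated pools higher. Of the 7 tested member probe sets 1 passed, as higher. The coefficient of variation of the dehydrated pools was 3.18%, against 9.67% in the control pools.

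The dimmer Pmp22 probe set did not pass. Dehydrated pools had 144, 144, 186, 171 and 161 signal units, against 140.0, 156, 155, 134 and 164 in control pools. These groups overlapped over most of their range, and the log2 change was 0.10 ± 0.10 (SE, limma adjusted p = 0.634). The log2 ratio of the brighter to the dimmer Pmp22 probe set within each array averaged 2.27 ± 0.12 for dehydrated pools and 1.96 ± 0.22 for control pools (SD, n = 5 each). The difference was 0.32 (exact two-sided permutation p = 0.0159, adjusted over 3 such pairs 0.0476; test added after the data were seen). The groups overlapped slightly, since the lowest dehydrated pool was at 2.11 and the highest control pool at 2.15. The call was marginal: with 1 pool left out at a time it held in 3 of 10 cases, and the adjusted p ran from 0.0476 to 0.119 (exact permutation tests), the highest without dehydrated 1 or dehydrated 2. With both probe sets averaged, Pmp22 had a log2 change of 0.26 and no longer passed (limma adjusted p = 0.0515). Which transcript form each probe set reads was not tested.

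**Figure D1:**
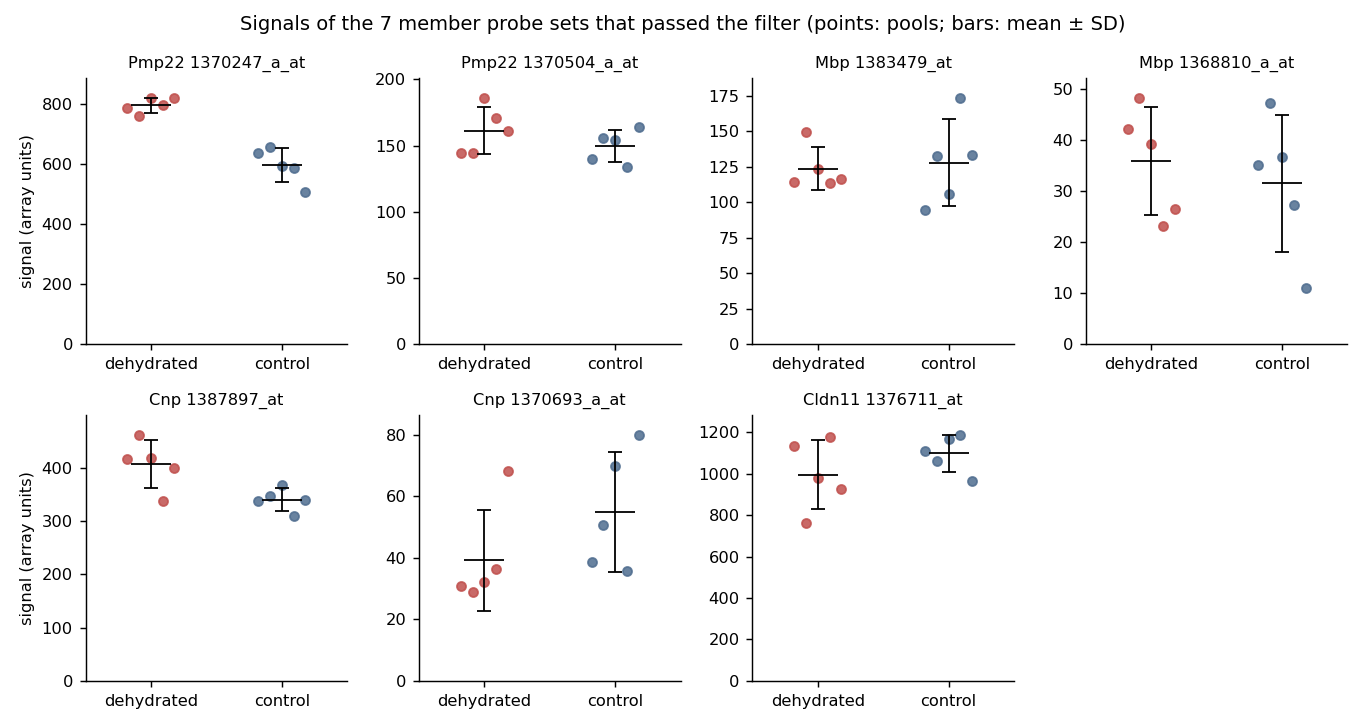
Signals in array units, on linear axes from 0, of the 7 member probe sets that passed the filter, with dehydrated pools on the left and control pools on the right of each panel; points are pools and bars the mean ± SD (n = 5). Only on the brighter Pmp22 probe set do all dehydrated pools, 758 to 819, lie above all control pools, 507 to 655.

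Pmp22 belongs to a family of small tetraspan membrane proteins with the epithelial membrane proteins Emp1, Emp2 and Emp3. Of the 8 tested genes in the list of Pmp22 relatives and claudins, 2 rose, Emp1 and Emp3, none fell and 6 did not pass. The median log2 change of the list was -0.05, beside -0.01 over all tested probe sets, of which 1.68% passed as higher. Emp1 had signals of 453, 368, 525.7, 442 and 533 in dehydrated pools, against 291, 294, 390.4, 239 and 283 in control pools. The groups overlapped, since 1 control pool lay above the lowest dehydrated pool. Its log2 change was 0.63 ± 0.12 (SE, limma adjusted p = 0.00906).

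For Emp3 the dehydrated pools had 161, 169, 172, 183 and 197 signal units, against 114, 105, 138, 142 and 121 in control pools. These groups did not overlap, and the log2 change was 0.49 ± 0.10 (SE, limma adjusted p = 0.0127). Emp2 averaged 55.4 ± 7.38 in dehydrated and 47.6 ± 6.26 in control pools (SD, n = 5 each) and did not pass (log2 change 0.20, adjusted p = 0.470). None of the 5 tested claudin genes passed. The largest change among them was that of Cldn3, a claudin of epithelial tight junctions, at -0.26 (unadjusted p = 0.0498, adjusted p = 0.288), and the others lay between -0.07 and -0.05.

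The promoters of the 3 family members with a probe set that rose, for Pmp22 only the brighter one, are shown to compare their letters. Windows from 250 bases before to 50 after the gene start were taken from RefSeq on rat build GRCr8, which holds 1 start for each of these genes and matched 7 of the 8 members, all but Mog. Capitals mark matches on either strand to any of 5 motifs: GCGNGGGCG for EGR factors, ACAAAG for SOX factors, TGANTCA for AP-1, GGGCGG for the GC box and TATAAA for the TATA box.
Pmp22 chr10:48294682-48294981, plus strand: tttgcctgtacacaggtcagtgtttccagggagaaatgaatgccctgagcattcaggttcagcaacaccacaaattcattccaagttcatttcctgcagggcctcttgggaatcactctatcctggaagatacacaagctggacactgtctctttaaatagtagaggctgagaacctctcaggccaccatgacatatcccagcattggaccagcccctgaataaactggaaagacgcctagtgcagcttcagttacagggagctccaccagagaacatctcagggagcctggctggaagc
Emp1 chr4:169943980-169944279, plus strand: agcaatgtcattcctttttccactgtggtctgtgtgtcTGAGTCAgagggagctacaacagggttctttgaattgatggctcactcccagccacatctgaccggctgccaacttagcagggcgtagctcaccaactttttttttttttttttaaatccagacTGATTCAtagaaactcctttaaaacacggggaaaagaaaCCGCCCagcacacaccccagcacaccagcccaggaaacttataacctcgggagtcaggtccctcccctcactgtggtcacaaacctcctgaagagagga
Emp3 chr1:105528216-105528515, minus strand: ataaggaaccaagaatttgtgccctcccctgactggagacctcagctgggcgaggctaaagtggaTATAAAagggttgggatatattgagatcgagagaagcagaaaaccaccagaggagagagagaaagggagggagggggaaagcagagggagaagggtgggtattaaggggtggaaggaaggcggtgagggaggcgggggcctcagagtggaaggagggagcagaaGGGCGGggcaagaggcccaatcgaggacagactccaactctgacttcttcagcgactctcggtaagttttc
The Pmp22 window held none of the 5 motifs, as did 38.9% of all 33469 windows. In Emp1 there were 2 AP-1 matches, which 7.33% of all windows hold at least once, and 1 GC box match. In Emp3 there were 1 TATA match far upstream of the start and 1 GC box match, motifs found in 14.2% and 33.1% of all windows. The window of Emp2, which did not pass, held 3 GC box matches, 1 AP-1 match and 1 SOX match. The AP-1 and GC box motifs were thus not limited to the windows of genes with a probe set that rose, and a match describes letters only.

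Cnp, the cyclic nucleotide phosphodiesterase of myelin-forming cells, was read differently by its 2 probe sets. On the brighter one (Entrez Gene 25275) dehydrated pools had 415, 462, 419, 338 and 400.2 signal units, against 337, 347, 367, 309 and 339.9 in control pools. In the dehydrated group 4 pools lay above every control pool and 1 lay within their range. The means were 407 ± 44.6 for dehydrated and 339.9 ± 21.0 for control pools (SD, n = 5 each). The log2 change of 0.25 ± 0.08 (SE) had a 95% confidence interval of 0.07 to 0.43, but it missed the threshold over all probe sets (limma adjusted p = 0.132). Without dehydrated pool 4, the lowest of its group, it passed (log2 change 0.31, adjusted p = 0.0471), where 2.37% of all tested probe sets passed.

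The dimmer Cnp probe set ran the opposite way without passing. Dehydrated pools had 30.8, 28.9, 32, 36.5 and 68.2 signal units, against 38.7, 50.6, 69.8, 35.6 and 80.0 in control pools. Dehydrated pool 5 stood apart from the rest of its group and overlapped the upper control pools. The log2 change was -0.44 ± 0.23 (SE, limma adjusted p = 0.351). Its 3 highest pools, control 5, control 3 and dehydrated 5, were also the 3 with the lowest 3' to 5' ratios, 1.26, 1.51 and 1.61. With that ratio as a covariate the log2 change was -0.10 (adjusted p = 0.875). Without dehydrated 5 and control 1, it was -0.74 and passed as lower (adjusted p = 0.0435), where 7.51% of all tested probe sets passed. Those pools had the lowest 3' to 5' ratio of the dehydrated group, 1.61, and the highest of the control group, 2.52. Leaving both out widened the difference in that ratio between the groups from 0.37 to 0.69. The part of RNA integrity in this result was not tested beyond these values. The log2 ratio of the brighter to the dimmer Cnp probe set was 3.27 ± 0.52 in dehydrated and 2.58 ± 0.41 in control pools (SD, n = 5 each, exact two-sided permutation p = 0.0556, adjusted over 3 pairs 0.0833). That difference passed without dehydrated 5 (0.89, exact permutation p = 0.00794, adjusted 0.0238) and without dehydrated 5 and control 1 (0.99, exact permutation p = 0.0286, adjusted 0.0429). Averaging both probe sets turned the sign of Cnp, to -0.09 (limma adjusted p = 0.745). No direction can therefore be given for Cnp.

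Cldn11, the tight junction claudin of central myelin that is also made in other barrier-forming tissues such as the arachnoid and the testis, did not pass on its tested probe set. On that probe set (Entrez Gene 84588) dehydrated pools had 1134, 761, 979.9, 1179 and 927 signal units, against 1108, 1061, 1168, 1188 and 967 in control pools. The groups overlapped, with dehydrated 2 and dehydrated 5, at 761 and 927, below all control pools. The log2 change was -0.15 ± 0.10 (SE, limma adjusted p = 0.473), with a 95% confidence interval of 0.773 to 1.05 for the fold. The other Cldn11 probe set, under the filter, had 27.9, 5.4, 24.2, 22.1 and 26.9 in dehydrated pools, against 14.7, 19.9, 45.8, 21.9 and 33.9 in control pools, which overlapped widely.

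Mbp, the main cytoplasmic protein of compact central myelin, is also transcribed in other cells from an upstream start as the Golli forms. Its brightest probe set (Entrez Gene 24547) had 114, 149.7, 123, 113 and 117 signal units in dehydrated pools, against 94.8, 132, 105, 173 and 133 in control pools. The control pools spanned the whole range of the dehydrated pools. The log2 change was -0.03 ± 0.14 (SE, limma adjusted p = 0.947), with a 95% confidence interval of -0.32 to 0.27. The second Mbp probe set had 42.2, 48.3, 39.3, 23.2 and 26.6 in dehydrated pools, against 35.2, 47.4, 36.8, 27.3 and 11.1 in control pools. Its log2 change of 0.22 ± 0.27 (SE, adjusted p = 0.724) came with an interval of 0.782 to 1.74 for the fold, too wide to tell an increase from a decrease. The third Mbp probe set was under the filter in all 10 pools, at 1.8 to 21.3 in dehydrated and 8.7 to 19.4 in control pools.

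**Figure D2:**
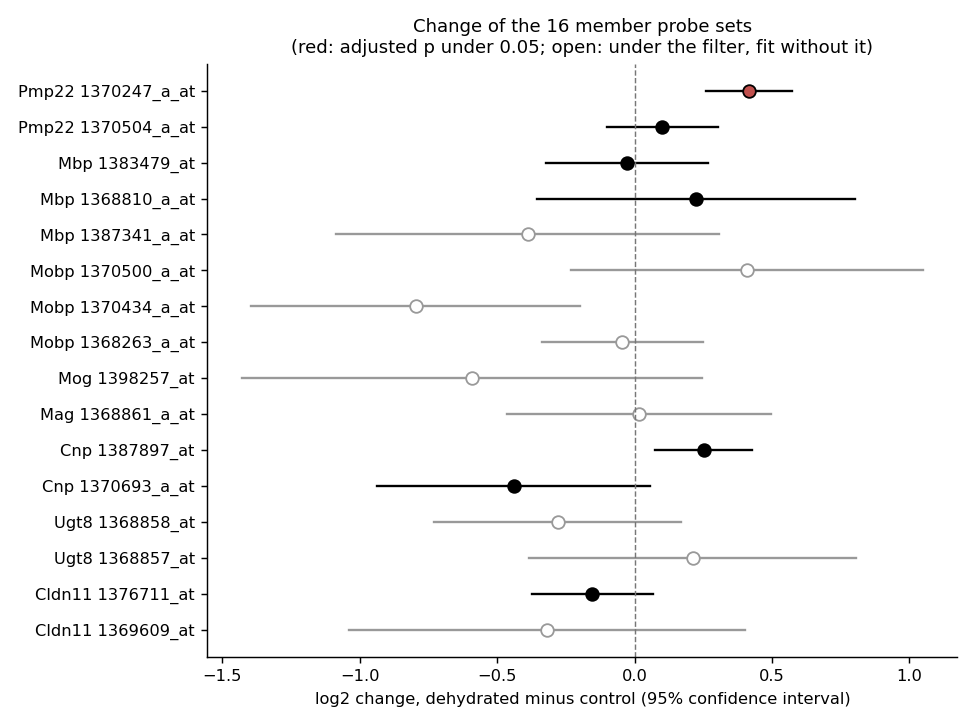
Log2 change, dehydrated minus control, of the 16 member probe sets with 95% confidence intervals from limma; the red point passed an adjusted p of 0.05, black points were tested and did not pass, and open points were under the filter and come from the fit without it. The brighter Pmp22 probe set at 0.42 is the only red point, and the 2 Cnp probe sets lie on opposite sides of 0.

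The genes that mark myelinating oligodendrocytes most closely stayed near the bottom of the scale. Mobp, a small basic protein of compact myelin (Entrez Gene 25037), had signals of 0.2 to 11.1 in dehydrated and 0.4 to 13.6 in control pools over its 3 probe sets. Mag, the glycoprotein that binds the axon (Entrez Gene 29409), had 11.0, 7.4, 9.8, 15.8 and 17.3 in dehydrated pools, against 12.4, 14.1, 8.2, 10.4 and 14.1 in control pools. Mag was thus under the filter signal in every pool and the groups overlapped.

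Ugt8, the galactolipid enzyme (Entrez Gene 50555), had 6.8 to 14.9 in dehydrated and 11.6 to 17.8 in control pools on its brighter probe set. Its dimmer probe set had at most 1.6 signal units in 9 of 10 pools and 11.3 in dehydrated 1. Mog, a surface protein used as a late marker of myelination (Entrez Gene 24558), had 1.8, 23.9, 29.6, 17.8 and 6.5 in dehydrated pools, against 31.2, 18.2, 16.9, 16.8 and 29.6 in control pools. It was under the filter signal in 6 of 10 pools, and the groups overlapped.

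In the fit without the filter, none of the 9 dim member probe sets passed, where 1.03% of all 31042 probe sets did (limma). At an unadjusted p under 0.05 there was 1, a Mobp probe set, with a log2 change of -0.80 ± 0.28 (SE, adjusted p = 0.241), beside 12.8% of all probe sets. Its signals were 0.2 to 1.4 in dehydrated and 0.9 to 13.6 in control pools. Such low values carry no measured fold, because background readings and detection calls were not used here.

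**Figure D3:**
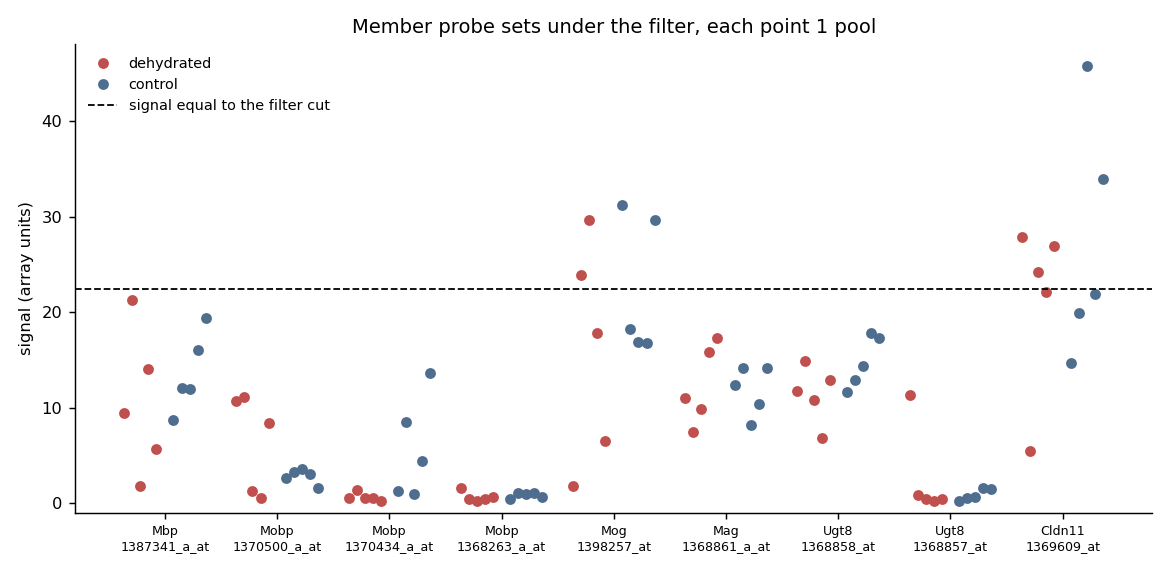
Signals in array units of the 9 member probe sets under the filter, dehydrated pools left and control pools right of each position, with each point 1 pool; the dashed line is the signal of 22.4 that corresponds to the filter. All pools of Mobp, Mag, Ugt8 and the third Mbp probe set lie under the line, while Mog and the dim Cldn11 probe set straddle it.

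The Mobp promoter window is shown because its letters stand apart although its transcript was dim. Capitals again mark motif matches, here all to the SOX motif ACAAAG read on the other strand.
Mobp chr8:128746982-128747281, plus strand: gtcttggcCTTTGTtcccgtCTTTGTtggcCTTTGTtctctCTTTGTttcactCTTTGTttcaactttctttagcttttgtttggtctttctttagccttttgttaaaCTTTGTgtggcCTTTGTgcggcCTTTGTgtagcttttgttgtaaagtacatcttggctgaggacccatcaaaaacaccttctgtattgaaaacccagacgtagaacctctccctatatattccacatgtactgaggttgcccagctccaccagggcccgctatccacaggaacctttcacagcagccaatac
It held 8 SOX matches in 300 bases. At least 1 match was present in 18.8% of all windows, and 8 or more in 3 of 33469 windows (0.00896%). Sox10, the SOX factor of oligodendrocytes and Schwann cells, was under the filter, with 3.6 to 16.2 signal units in dehydrated and 3.6 to 26.7 in control pools. Single SOX matches also lay in the windows of Cnp and Mag and in 1 of the 2 windows of Mbp.

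Whether Pmp22 changed differently from the other measurable members was asked with ratios within each array, which depend little on how arrays were scaled. The log2 ratio of Pmp22 to Cldn11 was -0.53, -0.01, -0.26, -0.56 and -0.18 in dehydrated pools, against -0.79, -0.69, -0.97, -1.01 and -0.93 in control pools. All 5 dehydrated pools lay above all control pools, and the difference of 0.57 passed (exact two-sided permutation p = 0.00794, the smallest that 5 against 5 pools allow; adjusted over 3 ratios 0.0238). Relative to Mbp the ratio was 2.65 ± 0.19 in dehydrated and 2.20 ± 0.39 in control pools (SD, n = 5 each), a difference of 0.44 that did not pass (exact permutation p = 0.0635, adjusted 0.0952). Without control 1 it was 0.57 and passed (exact permutation p = 0.0238, adjusted 0.0357). Relative to Cnp the difference was 0.17 (exact permutation p = 0.143, adjusted 0.143). The brighter Pmp22 probe set and Cldn11 thus changed unequally, and the other 2 differences did not pass. With the probe sets of a gene averaged no difference passed. That to Cldn11 was then 0.41 (exact permutation p = 0.0238, adjusted 0.0714), that to Mbp 0.16 (adjusted 0.405) and that to Cnp 0.35 (adjusted 0.0952). The call against Cldn11 held with any 1 pool left out (adjusted exact permutation p of 0.0238 to 0.0476).

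**Figure D4:**
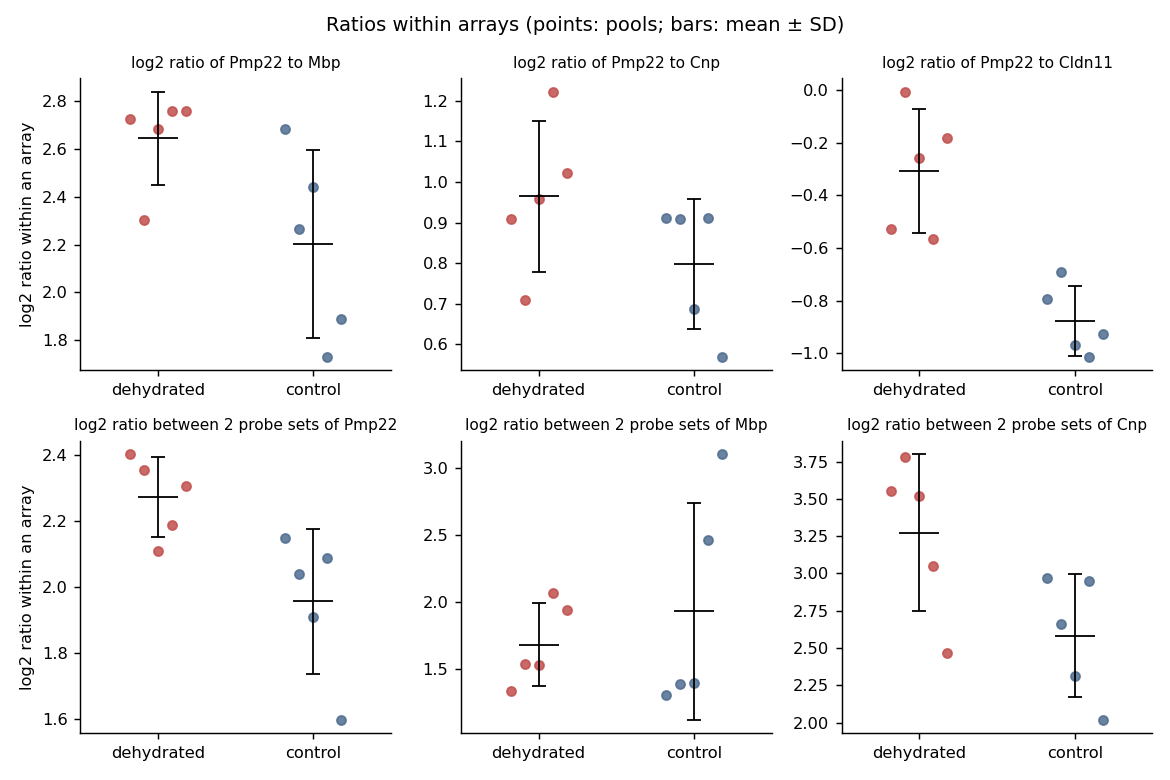
Log2 ratios within arrays for dehydrated pools on the left and control pools on the right of each panel; points are pools and bars the mean ± SD (n = 5). The upper row sets Pmp22 against Mbp, Cnp and Cldn11, with separate groups only for Cldn11; the lower row sets the 2 tested probe sets of Pmp22, Mbp and Cnp against each other.

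Other myelin genes were taken from lists that were chosen with earlier results of these data known. Of 22 oligodendrocyte and central myelin genes other than the members, 20 had a probe set with 1 symbol, 12 of these were under the filter, and of the 8 tested none passed in either direction. Their median log2 change was -0.07, beside -0.01 over all tested probe sets. Opalin, a surface protein of oligodendrocytes, had 0.7 to 1.3 signal units in dehydrated and 0.8 to 11.4 in control pools. Olig1 and Olig2, the lineage transcription factors, averaged 19.9 and 8.22 in dehydrated pools, against 18.2 and 11.1 in control pools. The smallest p in the list was that of Gpr37, a receptor of mature oligodendrocytes, with a log2 change of -0.34 (limma adjusted p = 0.303). The summed signal of the list was 549.8 to 644 in dehydrated and 617 to 677 in control pools. Of the 3 tested progenitor genes none passed, and their median log2 change was -0.06. Pdgfra, which also marks fibroblasts, was at 0.37 (limma adjusted p = 0.109) and passed without dehydrated 2 (adjusted p = 0.0135). Tnr at -0.48 (adjusted p = 0.201) and Lhfpl3 at -0.06 (adjusted p = 0.872) lay below 0.

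Of 15 Schwann cell genes other than Pmp22, 11 had a probe set with 1 symbol and 5 were tested. Egr2, the zinc finger factor that turns on peripheral myelin genes and is also an immediate early gene, rose with a log2 change of 1.29 (limma adjusted p = 0.000293). The other 4 did not pass, and over all tested probe sets 1.68% passed as higher. Of these 4, Gfra3 at -0.37 (adjusted p = 0.255) and Scn7a lay below 0, and Lgi4 at 0.26 and Drp2 at 0.07 above 0. Egr2 had signals of 77.9, 74.8, 101.9, 65.0 and 95.9 in dehydrated pools, against 31.1, 36.8, 26.4, 22.1 and 39.7 in control pools, with no overlap. Prx, the periaxin of myelinating Schwann cells, was under the filter, at 14.7 to 37.1 in dehydrated and 12.0 to 31.7 in control pools. Pmp2, a lipid-binding protein of peripheral myelin, had 0.4 to 2.8 in dehydrated and 0.7 to 2.8 in control pools. The sodium channel gene Scn7a, listed as a marker of Schwann cells but also known from glia of brain regions that sense salt, had 2718 ± 188 in dehydrated and 2813 ± 90.9 in control pools (SD, n = 5 each), with a log2 change of -0.05 (adjusted p = 0.739). The summed signal of the list was 2708 to 3280 in dehydrated and 2934 to 3168 in control pools, and Scn7a made up 89.1% of it in dehydrated and 91.7% in control pools. Without Scn7a the sum was 253 to 416 in dehydrated and 223 to 281 in control pools, which overlapped. Egr2 is part of that sum and averaged 83.1 in dehydrated and 31.2 in control pools.

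Genes of the axon contact and the node of Ranvier and genes of galactolipid and sphingolipid metabolism were tested alongside. None of the 7 tested genes of either list passed, and their median log2 changes were -0.13 and -0.03. Changes below 0 were found for 6 of the 7 node genes and 4 of the 7 lipid genes. The smallest p values belonged to Nfasc, the neurofascin that joins glia to axons, at -0.31 (limma adjusted p = 0.0893), and to Arsa, which removes sulphate from myelin sulphatide, at -0.23 (adjusted p = 0.200). Nfasc passed without dehydrated 5 (adjusted p = 0.0404), where 1156 of all 18625 tested probe sets passed, beside 458 with all pools. The brightest Nfasc probe set had 141 to 181 signal units in dehydrated and 179 to 219 in control pools.

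Cell types that can make Pmp22 were followed by their own markers, since Pmp22 is not restricted to Schwann cells. Among the 12 fibroblast and meningeal markers tested, 4 were higher, 0 lower, and the median log2 change was 0.18. Over all tested probe sets 1.68% passed as higher and 0.784% as lower. The lists were chosen with earlier results of these data known, so such counts do not test whether a list rose. Those that rose were Postn, a matricellular protein, at 1.24, Mgp, which restrains mineralization, at 0.99, Lum at 0.55 and Dcn at 0.43, the last 2 being proteoglycans (limma adjusted p at most 0.00895). Dcn no longer passed when the fit had no intensity trend (adjusted p = 0.0550). The summed signal of that list was 10696 to 13199 in dehydrated and 7872 to 8723 in control pools, without overlap. Mgp made up 42.2% of it in dehydrated and 30.2% in control pools, and without Mgp the sum was 6620 to 7561 in dehydrated and 5400.2 to 6145 in control pools, still without overlap. The list did not move as a whole: 4 of the 12 genes had changes below 0, Igf2 at -0.37, Col1a2 at -0.17, Ogn at -0.15 and Fn1 at -0.04, none of which passed. Of the 10 endothelial and mural markers tested, 4 were higher, 0 lower, and the median was 0.47. These were Flt1 at 0.90 and Kdr at 0.63, both receptors for vascular endothelial growth factor, the pericyte gene Rgs5 at 0.72 and the endothelial sialomucin Emcn at 0.51 (adjusted p at most 0.0151). Flt1 no longer passed when dehydrated 3 was left out (adjusted p = 0.0589). This list did not move as a whole either. Of its 10 tested genes 3 had changes below 0, Tie1 at -0.26, Acta2 at -0.04 and Pecam1 at -0.01, none of which passed. The summed signal was 1604 to 2023 in dehydrated and 1097 to 1452 in control pools, again without overlap. The part of these cells in the Pmp22 result was not tested.

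Of the 14 pituicyte and astroglia markers tested, 3 were higher and 0 lower, beside 1.68% and 0.784% of all tested probe sets. They were Gfap, the intermediate filament of astroglia, at 2.38 (limma adjusted p = 5.30e-06), Lhx2 at 0.39 and Slc1a3, which takes up glutamate, at 0.36. Slc1a3 no longer passed in a fit with no intensity trend (adjusted p = 0.0509). Of the 14 genes 4 had changes below 0, none of which passed. These were Fabp7 at -0.23, Aqp4 at -0.22, S100b at -0.21 and the transcription factor gene Rax at -0.19. The summed signal of that list was 10331 to 11998 in dehydrated and 10154 to 10677 in control pools, which overlapped. Of 6 melanotroph markers Pcsk2 fell by 0.88, and of 6 anterior lobe markers Fshb fell by 0.86, with none that rose in either list. Of the melanotroph markers 5 had changes below 0, and the median was -0.09. The anterior lobe list leaned the other way from Fshb, with a median of 0.29. Its other 5 genes had changes above 0 that did not pass, from 0.0048 for Prl to 1.17 for Tshb (adjusted p at least 0.260). The summed signals of these 2 lists were 5447 to 6053 in dehydrated and 5989 to 6934 in control pools for melanotrophs, and 4837 to 9424 in dehydrated and 2587 to 7973 in control pools for the anterior lobe. Of 6 neuronal cell body markers none passed, with the smallest p for the synaptic vesicle fusion gene Snap25 at 0.21 (adjusted p = 0.181). Snap25 passed without dehydrated 5 (adjusted p = 0.0237), where 1156 of all 18625 tested probe sets passed, beside 458 with all pools.

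**Figure D5:**
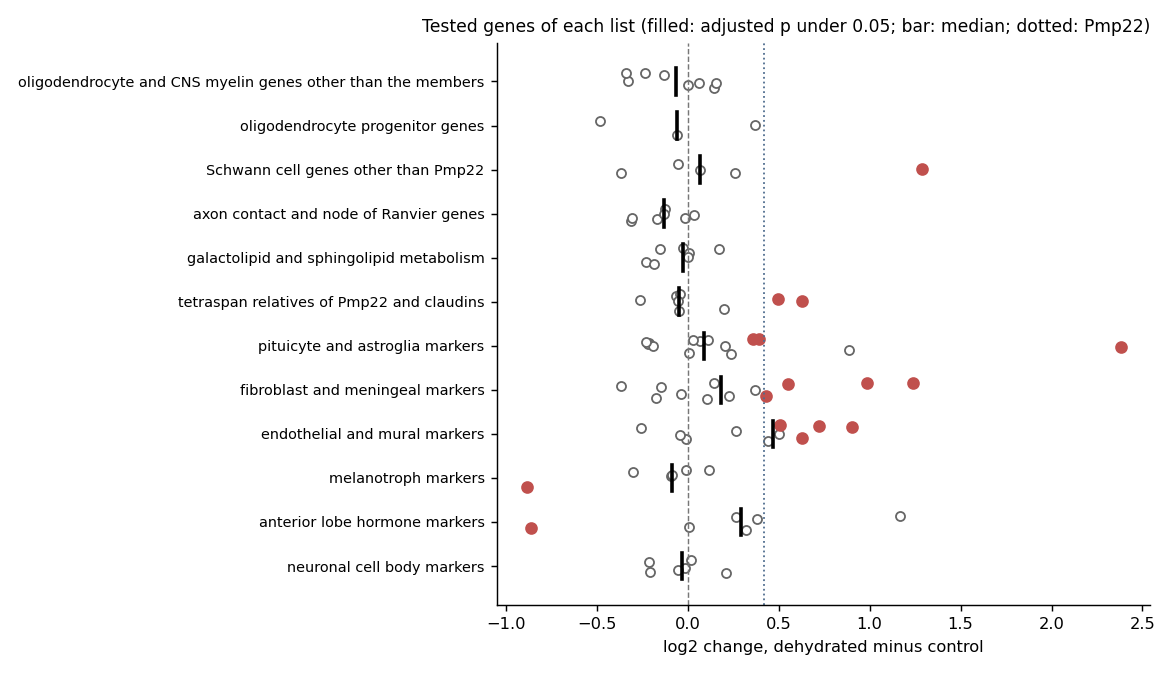
Log2 change, dehydrated minus control, of the tested genes in 12 lists; each point is a gene's brightest tested probe set, filled where it passed an adjusted p of 0.05, the bar is the list median and the dotted line marks Pmp22 at 0.42. Oligodendrocyte, node and galactolipid lists hold no filled point, and 6 of the 7 node genes lie below 0. The fibroblast and endothelial lists each hold 4 filled points to the right, and the pituicyte list holds 3.

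The genes whose pools varied most like Pmp22 were found after each group's mean was taken off, over 10 arrays and 10589 other genes. They were Vmp1, a membrane protein of autophagy, at r = 0.959, the kinase gene Shpk at 0.931, Ogfrl1 at 0.930, the Ras-regulating gene Rasa3 at 0.925 and the ubiquitin ligase gene Rnf130 at 0.920. For Cldn11, whose tested probe set was the brightest of the other members, they were Bola2 at 0.951, Sh3bgrl1 at 0.937, the deadenylase gene Cnot6l at 0.936, the choline transporter gene Slc44a1 at 0.932 and Osbpl8 at 0.921. No gene was in both groups of 5. Among the members, the brighter Pmp22 probe set correlated most with the second Mbp probe set, at r = 0.69. Its r was -0.35 with the brightest Mbp probe set, 0.31 with Cldn11, -0.07 with the brighter and -0.29 with the dimmer Cnp probe set, and -0.05 with the dimmer Pmp22 probe set. These values describe the residual spread of 10 arrays that share scaling and RNA handling.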

How the data were processed

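Each of 10 arrays (5 dehydrated, 5 control) carried a pool of 5 animals. The deposited table gives linear, not logged, signal intensity values, 1 for each probe set in each array. GCOS 1.2 is named in the submitters' processing notes, and its algorithm and scaling are not given in the sources used here. From the values, every array has a mean of about 100 after trimming 2% at each end, as scaled arrays do. No columns were identical, and all 10 were used.

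Values were analysed as log2(signal + 5), which understates changes of dim genes. Of 31099 probe sets 57 controls were left out, and 20826 of the others had 1 gene symbol, 436 several and 9780 none in the platform annotation. The symbols of the 8 members equal those that RefSeq GRCr8 gives for the same gene IDs. The 60% with the highest mean over all arrays, 18625, were tested with limma 3.58.1 in R 4.3.3 (intensity trend, two-sided, Benjamini-Hochberg over all tested). Called means an adjusted p under 0.05. List genes used their brightest tested probe set. Named were all members, per list up to 4 called genes by size or the smallest p, and Prx, Sox10, Olig1, Olig2, Egr2, Emp1, Emp2 and Emp3; further genes named with values were chosen after their values were seen. Exact permutation tests used 252 splits in Python 3.11.15 (scipy 1.17.1). Alternatives changed 1 choice at a time: the pseudocount, filter, normalization, variance model, 3' to 5' covariate, averaging of probe sets, and arrays left out. On simulated data for this comparison over 18625 probe sets, 48% of changes of 0.5 and 94% of changes of 1 (log2) were recovered, with 7 of 131 calls false; of changes of 0.3, 6% were recovered. The members and lists were chosen with earlier results of these data known.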

Additional observations from a re-analysis of the deposited data

Results flagged for a closer look

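Of 46 groups of 5 pools examined, 5 held a pool far from the others by Dixon's criterion, a gap to the nearest pool over 0.71 of the group's range, which chance gives in about 1 in 20 groups. On the dimmer Cnp probe set dehydrated 5 was the high one (0.737). On the dimmer Ugt8 probe set it was dehydrated 1 (0.904), at 11.3 signal units, and on a Mobp probe set it was dehydrated 2 (0.730), at 1.4. On the Cldn11 probe set under the filter dehydrated 2 was the low one (0.832), at 5.4, and it was also low for the ratio of Pmp22 to Mbp (0.832). None of the groups of either Pmp22 probe set held such a pool.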

How the results depend on the processing

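The call of the brighter Pmp22 probe set held in all 21 alternatives to its single probe set fit, with log2 changes of 0.36 to 0.45 and limma adjusted p of 0.00383 to 0.0396, and ended when its probe sets were averaged (0.26, adjusted p = 0.0515). Adjusted for the 3' to 5' ratio, it was 0.39 (adjusted p = 0.0133). Egr2, Emp1 and Emp3 kept their calls in every alternative in which they were tested. The number of member probe sets called was 1, and 2 without dehydrated 5 and control 1, and 1 to 2 with each array left out. Over all probe sets 458 were called. That count was 240 without an intensity trend, 1398 without dehydrated 5 and control 1, and 218 to 1156 with each array left out (dehydrated 3 gave the low and dehydrated 5 the high end; leaving out dehydrated 1 gave 301, and control 2 to 5 gave 288 to 304). Median centring moved the share of calls that were higher to 80.1%, beside 68.1%; it was 56.3% without dehydrated 5 and 47.7% without dehydrated 5 and control 1. Signs turned for the brightest Mbp probe set (0.0096 median centred, 0.0010 without dehydrated 4, 0.087 without control 4; -0.12 to 0.087 with each array left out), for the second Mbp probe set (-0.041 with the ratio covariate, -0.047 without control 5; -0.047 to 0.38 with each array left out), and with probe sets averaged for Mbp (0.098) and Cnp (-0.095). With each array left out, the Pmp22 ratio differed by 0.50 to 0.64 to Cldn11, 0.10 to 0.23 to Cnp and 0.33 to 0.57 to Mbp (passing after adjustment at 0.57 without control 1). The Cldn11 difference no longer passed with probe sets averaged (0.41, adjusted p = 0.0714) or without dehydrated 5 and control 1 (0.56, adjusted p = 0.0857, where the unadjusted exact permutation p of 0.0286 is the smallest possible). The ratio between probe sets differed by 0.23 to 0.37 for Pmp22 (adjusted exact permutation p of 0.0476 to 0.119, passing in 3 of 10 cases), -0.41 to 0.04 for Mbp (0.042 without control 5) and 0.55 to 0.89 for Cnp, which was 0.99 without dehydrated 5 and control 1. The 3' to 5' ratio differed by 0.24 to 0.56, and by 0.69 without both arrays (exact permutation p = 0.0286). The cause of these shifts was not tested. No paired analysis was possible because the labels give no replicate numbers. Probe sets near the bottom of the scale limit what can be said of Mobp, Mog, Mag and Ugt8, since their signal over background is unknown here.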
